A study of Mus musculus with 9 samples.

Results

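The genes described here are 10 that act when cells of the eye engulf shed photoreceptor outer segments. They are the receptor tyrosine kinases Mertk, Axl and Tyro3, their ligands Gas6 and Pros1, the integrin subunits Itgav and Itgb5 with the bridging protein Mfge8, the scavenger receptor Cd36 and the motor protein Myo7a. They were chosen by name, and all 10 were found among the 37725 genes of the count matrix. Single-cell RNA-sequencing was performed on the retinas of 9 mice, 4 control (S01 to S04) and 5 dKO (S05 to S09), with both retinas of a mouse pooled and dissociated with papain. By the labels, every mouse carried RPE65-ERT2-Cre together with floxed alleles of miR-211 and miR-204. Rpe65 is transcribed in the retinal pigment epithelium (RPE), so that this Cre, which needs tamoxifen to enter the nucleus, deletes the floxed microRNAs there. The dKO mice were given tamoxifen at 75 mg/kg in corn oil by intraperitoneal injection on 5 consecutive days from postnatal day 28, the control mice were given corn oil, and all were sampled at 6 months by the time label. Tamoxifen and the deletion therefore cannot be told apart in the comparison of the groups, and the matrix has no row named Mir204 or Mir211, so the deletion itself was not checked in these counts.

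Photoreceptors renew their outer segments by shedding the tips, and the neighbouring RPE binds and ingests them in a daily rhythm. The integrin αvβ5, encoded by Itgav and Itgb5, binds the tips through the bridging protein MFG-E8, which recognises phosphatidylserine on the shed membrane. MerTK then drives ingestion, activated by Gas6 or protein S (encoded by Pros1), and its loss in rodents leaves outer segment debris in the subretinal space and leads to photoreceptor degeneration. Microglia and Müller glia also clear dying cells, in part with the same receptors. Myosin VIIa carries phagosomes and melanosomes in the RPE.

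The microRNAs deleted in the dKO mice were compared with the 3′ UTRs of the 10 genes, since a microRNA recognises its targets mainly through its seed. Their mature sequences, from RefSeq, are printed with the seed, bases 2 to 8, in capitals, because both microRNAs share it.

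mmu-miR-204-5p: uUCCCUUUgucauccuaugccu

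mmu-miR-211-5p: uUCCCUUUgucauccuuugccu

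The sequences are 22 bases long and differ at 1 base, position 17 from the 5′ end. The DNA letters that pair with this seed are AAAGGGAA (8mer), AAAGGGA (7mer-m8) and AAGGGAA (7mer-A1), the 8mer holding both shorter motifs. These were searched on the transcribed strand of the 3′ UTR of the canonical transcript in GENCODE M39 (GRCm39). None of the 10 members held a match (0 of 10), whereas 23.8% of 20858 mouse 3′ UTRs held at least 1 and 6.75% an 8mer. The members' 3′ UTRs ran from 375 bases in Gas6 to 3581 bases in Itgav, beside a median of 1082 over all of them. The absence of a match says only that these letters are not in these windows. In GRCm39 the receptors Mertk (chromosome 2, 128540729 to 128645080), Tyro3 (chromosome 2, 119628214 to 119648738) and Itgav (chromosome 2, 83554403 to 83637260) lie on the plus strand of one chromosome. Axl (25456535 to 25488329), Mfge8 (78783515 to 78798825) and Myo7a (97699069 to 97768734) lie on the minus strand of chromosome 7. Pros1 (62674275 to 62749710) and Itgb5 (33649988 to 33771137) lie on the plus strand of chromosome 16, Gas6 on the minus strand of chromosome 8 (13515371 to 13544824), and Cd36 on the minus strand of chromosome 5 (17986432 to 18094067).

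Cells were assigned to types by gates on 5 marker genes for each of 14 types, none of them a member, and 28491 of 31089 cells entered a gate. The 327 RPE cells made up 1.15% of gated cells. They were led by Rgr, Rpe65, Slc6a20a, Ptgds and Lrat, genes of the visual cycle and of RPE transport. Rpe65, Slc6a20a and Lrat are markers of this gate, so their lead was set by the gating. There were 2103 Müller glia (led by Abca8a, Spc25 and Glul), 68 microglia (led by Inpp5d, Dock2 and Ctss) and 15904 rods. Abca8a and Glul are markers of the Müller glia gate, whereas the genes named for microglia are no gate markers. Unique molecular identifiers (UMIs, each standing for 1 captured RNA molecule) were summed per mouse and type and are given as counts per 1000000 UMIs of that type in that mouse (CPM). A mouse entered a mean or a test of a type when it had at least 10 cells of it, which left 7 mice for RPE (3 control and 4 dKO), 9 for Müller glia and rods and 3 for microglia (S02, S06 and S08). The 9 mice held 15079143 to 66528160 UMIs each. No cell barcode was shared between mice. S04, S05 and S07 stood apart from the other 6, with Y-linked RNA at 404 to 424 CPM. Their Xist stood at 35.4 to 51.8 CPM (1377 to 1570 in the others). Gated rods made up 71.0 to 86.9% of all their cells, gated or not (32.4 to 45.8% in the others). Of the 12 RPE cells of S07, 8 held Xist and no Y-linked UMI, beside 2 of its 69 Müller glia (2.90%), so that S07 enters the RPE comparisons with cells that go against the rest of its library and only 27932 UMIs. Without S07, 29 of 29 log2 fold changes of members between RPE and the other types kept their direction and their side of the threshold, and other values without it are given where it moves them. One animal number stands in the labels of both S06 and S07, which were counted here as separate mice.

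Mertk, the kinase that drives ingestion, was highest in microglia and next in RPE. In RPE it stood at 582, 555 and 563 CPM in S01, S02 and S03 and at 499, 215, 633 and 688 CPM in S06, S07, S08 and S09. The low value of S07 rests on 6 UMIs, with an exact 95% Poisson interval of 78.8 to 468 CPM that covers counting error only. In Müller glia the lowest, median and highest mice stood at 255, 320 and 566 CPM. The 3 microglia samples stood at 2851, 1391 and 1360 CPM, above every RPE value, and the RPE mice overlapped the Müller glia mice in range. The means were 1867 ± 852 CPM in microglia (SD, n = 3), 534 ± 153 in RPE (n = 7), 338 ± 143 in pericytes (n = 7), 334 ± 90.7 in Müller glia (n = 9) and 6.68 ± 2.74 in rods (n = 9). RPE, pericytes and Müller glia each overlapped the next type in this order, and the RPE mean was 587 CPM without S07. Within mice, Mertk was higher in RPE than in Müller glia, with a log2 fold change of 0.97 (SE 0.18, adjusted p = 1.67e-05, quasi-likelihood test of edgeR, Benjamini-Hochberg adjustment over 15707 genes). It was lower in RPE than in microglia by a log2 fold change of -0.78 (SE 0.26, edgeR adjusted p = 0.0215), a call that was lost without S02 (-0.48, edgeR adjusted p = 0.273). The tests scale with TMM, which put the median of all genes at 0.83 in this contrast, beside -0.00013 with library-size scaling. The fold change is therefore not on the scale of the CPM means above, as in the other contrasts with microglia below.

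Axl, a kinase of the same family that binds Gas6, was nearly unseen in RPE. Pericytes (345 ± 78.7 CPM, n = 7) and fibroblast-like cells (316 ± 93.2, n = 6) overlapped each other and stood above microglia (71.1 ± 17.1, n = 3) and Müller glia (56.1 ± 7.24, n = 9), which also overlapped. In RPE the 7 mice ranged from 0 to 3.17 CPM, with 12 UMIs in 11049839, beside 1.62 CPM in rods. The log2 fold change of RPE over Müller glia was -5.46 (SE 0.26, edgeR adjusted p = 1.32e-18), and that of RPE over rods was -0.33 (SE 0.44, edgeR adjusted p = 0.508). The remaining kinase of the family, Tyro3, was low in every type. It reached 16.1 CPM in retinal ganglion cells, 11.5 ± 5.59 in Müller glia (n = 9), 11.5 ± 6.66 in RPE (n = 7) and 5.62 in rods, each overlapping the next in order. RPE and Müller glia did not pass the test for Tyro3 (log2 fold change 0.17, SE 0.28, edgeR adjusted p = 0.620). No Tyro3 UMI was counted among 489591 UMIs of the 68 microglia, which allows a level of up to 6.13 CPM (3 UMIs over the pooled microglia), so that pooled Müller glia were at least 2.13-fold higher than that limit.

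**Figure D1:**
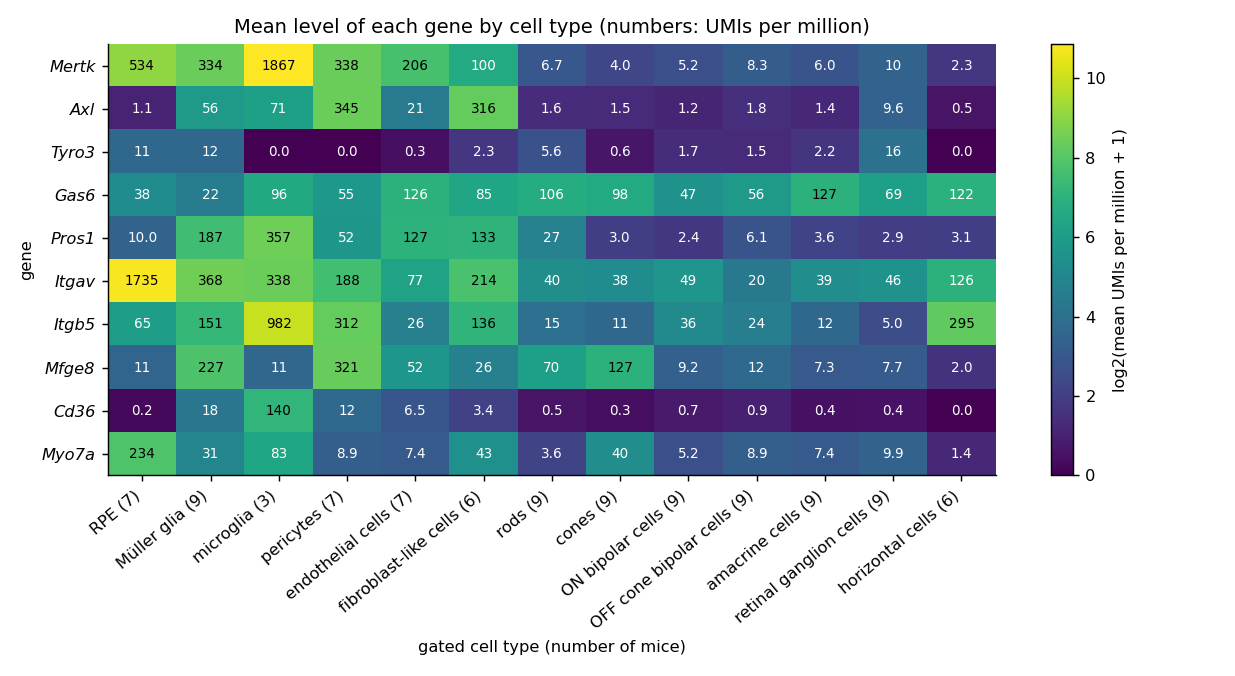
Mean CPM of each member (rows) in 13 gated cell types (columns, with the number of mice), as numbers and on a colour scale of log2(mean CPM + 1). Mertk and Itgb5 are highest in microglia, Itgav and Myo7a in RPE, Axl and Mfge8 in pericytes, and Cd36 and Axl are close to 0 in RPE (0.17 and 1.13 CPM).

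The ligands Gas6 and Pros1 differed from each other in where they were found. Gas6, which binds phosphatidylserine and activates all 3 kinases, was spread over neurons and vessels, with 127 CPM in amacrine cells, 126 in endothelial cells, 122 in horizontal cells, 106 ± 11.1 in rods (n = 9) and 97.6 in cones, neighbours in this order that overlapped in range. The RPE mice stood at 27.1, 28.9 and 35.3 CPM in S01 to S03 and at 36.6, 35.8, 29.2 and 72.3 CPM in S06 to S09, all below the lowest rod value of 83.9 CPM. Müller glia had the lower mean of the 2 types, 22.3 ± 6.77 CPM (n = 9) beside 37.9 ± 15.6 in RPE (n = 7). Gas6 was higher in RPE than in Müller glia (log2 fold change 0.88, SE 0.17, edgeR adjusted p = 2.31e-05) and lower in RPE than in rods (-1.28, SE 0.15, edgeR adjusted p = 6.70e-09).

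Pros1, encoding protein S, had its highest means in microglia and Müller glia. Microglia stood at 303, 406 and 363 CPM (357 ± 52.1, n = 3), above every Müller glia mouse. Mice with fewer microglia stood at 305 to 544 CPM, except S07 at 156 CPM, within the Müller glia range. Müller glia ranged from 112 to 285 CPM (187 ± 55.6, n = 9) and overlapped fibroblast-like cells, which had a mean of 133 CPM. Endothelial cells had a mean of 127 CPM, and rods 26.9 ± 3.66 (n = 9). The RPE mean was 9.95 ± 6.70 CPM (n = 7), below rods (log2 fold change -1.16, SE 0.22, edgeR adjusted p = 2.45e-05) and far below Müller glia (-3.93, SE 0.21, edgeR adjusted p = 1.36e-17). Microglia and Müller glia did not pass the test for Pros1 with TMM scaling (log2 fold change 0.26, edgeR adjusted p = 0.496), but did with library-size scaling (0.93, edgeR adjusted p = 0.0148).

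The integrin subunits were highest in different types. Itgav, the αv chain, was highest in RPE, at 1316, 1471 and 1790 CPM in S01 to S03 and at 1732, 1611, 1959 and 2264 CPM in S06 to S09. The RPE mean of 1735 ± 314 CPM (n = 7) was 4.71 times that of the next type, Müller glia (368 ± 34.3, n = 9), and the ranges did not overlap. Microglia (338 ± 99.7, n = 3) overlapped Müller glia, and rods held 40.4 CPM. In the fit across genes Itgav was higher in RPE than in Müller glia by 2.33 (SE 0.13, edgeR adjusted p = 9.59e-17), than in microglia by 3.18 (SE 0.24, edgeR adjusted p = 1.44e-12) and than in rods by 5.53 (SE 0.15, edgeR adjusted p = 1.65e-25), all on the log2 scale.

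Itgb5, the β5 chain that joins αv in the binding receptor, followed a different order. Microglia held 1220, 781 and 945 CPM (982 ± 222, n = 3), above every pericyte value, and pericytes (312 ± 127, n = 7) overlapped horizontal cells (295 ± 40.4, n = 6). Müller glia stood at 151 ± 23.5 CPM (n = 9) and RPE at 64.8 ± 35.5 (n = 7), with fibroblast-like cells between them (75.6 CPM in RPE without S07). Itgb5 was lower in RPE than in Müller glia (log2 fold change -0.82, SE 0.15, edgeR adjusted p = 1.23e-05) and than in microglia (-2.94, SE 0.22, edgeR adjusted p = 9.72e-13), and higher in RPE than in rods (2.55, SE 0.16, edgeR adjusted p = 9.18e-16), where the mean was 14.9 CPM.

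Mfge8, which bridges αvβ5 and the shed membrane, had its highest mean in pericytes (321 ± 88.7 CPM, n = 7), which overlapped Müller glia (227 ± 29.1, n = 9). Cones (127 ± 23.5, n = 9) and rods (69.7 ± 17.2, n = 9) followed. Rods of S04, S05 and S07 stood at 87.9, 91.1 and 94.3 CPM, above the 46.8 to 68.9 of the other 6 mice. RPE held 10.6 ± 11.3 CPM (n = 7), with 73 UMIs in all and the highest value, 35.8 CPM in S07, made of 1 UMI. The mean was 6.46 CPM without S07. RPE was below Müller glia by a log2 fold change of -4.78 (SE 0.19, edgeR adjusted p = 4.56e-21) and below rods by -3.01 (SE 0.20, edgeR adjusted p = 2.80e-15). Microglia held 6 Mfge8 UMIs over all mice, and 1 in each of S02, S06 and S08, the mice tested. They could not be set apart from RPE for Mfge8 (log2 fold change 0.17, SE 0.93, edgeR adjusted p = 0.909).

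Cd36, a scavenger receptor for oxidised lipid and for outer segments, was at or near 0 in RPE cells. Of 11049839 RPE UMIs, 3 came from Cd36, in 2 mice, a pooled level of 0.271 CPM (exact 95% Poisson interval 0.0560 to 0.793) beside 0.511 CPM in rods (0.379 to 0.674). Rods were 1.88 times RPE, with a counting interval of 0.608 to 9.44, and Müller glia were 68.1 times RPE (23.2 to 331). Microglia held 39.1, 96.3 and 285 CPM in S02, S06 and S08, the mice with at least 10 microglia, each above every Müller glia mouse (9.56 to 29.8 CPM). In the mice with fewer microglia Cd36 stood at 27.2 CPM in S01, 19.9 in S03 and 0 in S04, S05, S07 and S09, within or below the Müller glia range. Of 68 microglia, 9 held a Cd36 UMI (13.2%, or 9.38% after thinning). The log2 fold change of microglia over Müller glia was 2.21 (SE 0.48, edgeR adjusted p = 3.86e-04), and the call was lost without S08 (0.98, edgeR adjusted p = 0.234) or with microglia that held at least 4 of 5 markers (1.26, edgeR adjusted p = 0.0990).

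Myo7a, the motor that carries phagosomes, was highest in RPE, at 253, 214 and 254 CPM in S01 to S03 and at 269, 251, 223 and 176 CPM in S06 to S09. The RPE mean of 234 ± 32 CPM (n = 7) was 2.83 times that of microglia (82.8 ± 50.0, n = 3), with no overlap. Müller glia held 30.9 ± 19.3 CPM (n = 9) and rods 3.64. Myo7a was higher in RPE than in Müller glia by 3.02 (SE 0.16, edgeR adjusted p = 1.97e-17) and than in microglia by 2.29 (SE 0.39, edgeR adjusted p = 1.30e-05), on the log2 scale.

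**Figure D2:**
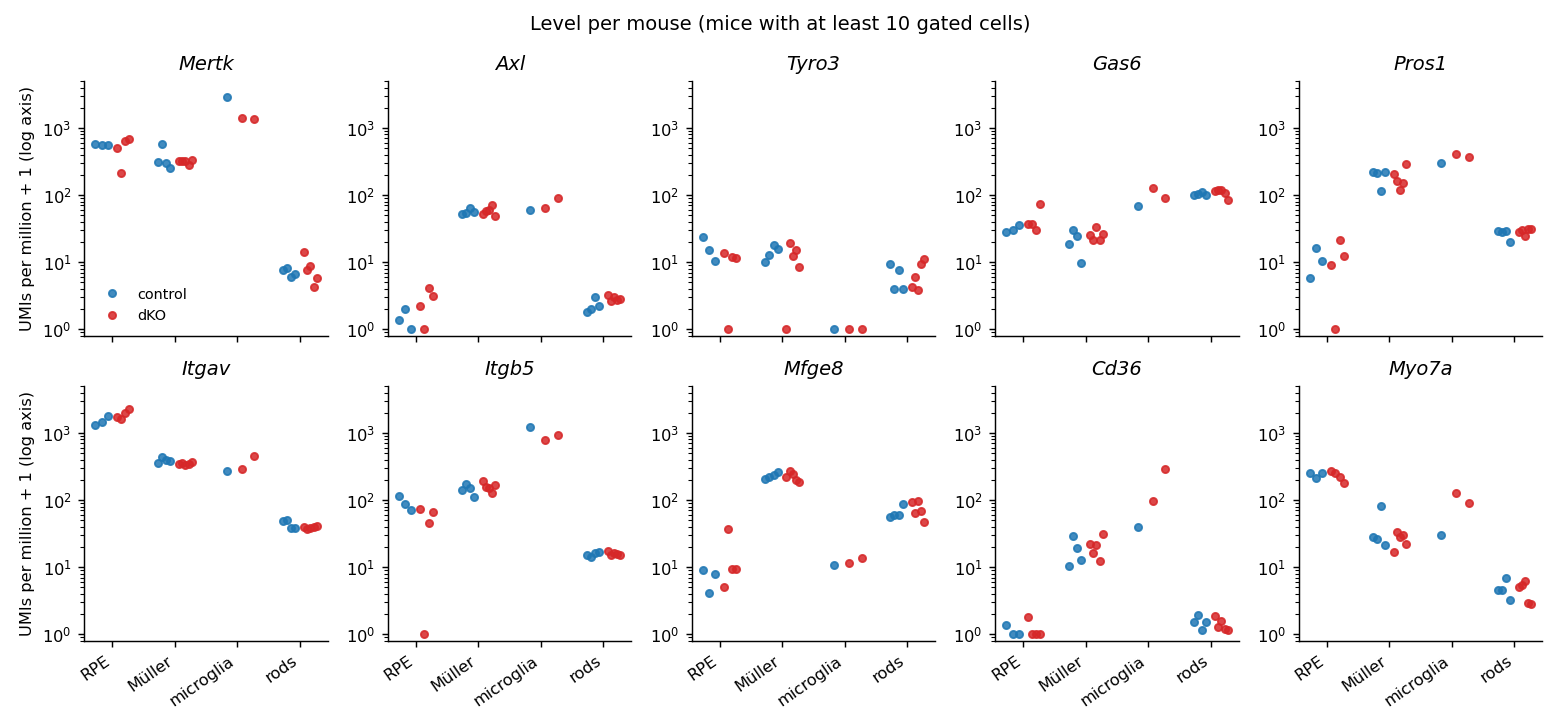
CPM + 1 of each member on a log axis in RPE, Müller glia, microglia and rods, with 1 point per mouse that has at least 10 cells of the type, control mice in blue and dKO mice in red. Itgav and Myo7a in RPE lie above all other types shown, and Mertk and Itgb5 lie highest in microglia.

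In all, 9 of the 10 members passed the edgeR test between RPE and Müller glia, 4 higher in RPE (Mertk, Gas6, Itgav, Myo7a) and 5 lower (Axl, Pros1, Itgb5, Mfge8, Cd36), whereas 61.6% of all genes tested passed it. Between RPE and microglia 7 passed, with Itgav and Myo7a higher in RPE, beside 32.2% of all genes. Between microglia and Müller glia 6 passed (Mertk, Gas6, Itgb5 and Cd36 higher, Itgav and Mfge8 lower in microglia), beside 31.7% of all genes. Between RPE and rods 8 passed, 5 higher (Mertk, Tyro3, Itgav, Itgb5, Myo7a) and 3 lower (Gas6, Pros1, Mfge8) in RPE, beside 69.9% of all genes. In the contrasts with microglia TMM scaling moved the median of all genes to 0.83 (RPE over microglia) and -0.86 (microglia over Müller glia) on the log2 scale, and with library-size scaling to -0.00013 and -0.19. The share of calls that were higher fell from 65.1% to 33.0% in RPE over microglia, and rose from 32.5% to 57.3% in microglia over Müller glia. With library-size scaling Itgav was no longer past the threshold in microglia over Müller glia (-0.17), Myo7a was past it (1.41, edgeR adjusted p = 0.0325), and Gas6 was past it in RPE over microglia (-1.38, edgeR adjusted p = 0.0126). In microglia over Müller glia the call of Itgav (-0.85) was also lost without S02 (-0.66, edgeR adjusted p = 0.0973), and that of Gas6 (1.42) without S06 (1.14, edgeR adjusted p = 0.143) or with at least 4 markers (1.26, edgeR adjusted p = 0.105).

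Because the types differ in number, the share of all gated UMIs of a gene that each type held was also computed. RPE held 3.25% of all gated UMIs, but 42.6% of those of Itgav, 39.6% of Myo7a and 29.2% of Mertk. Müller glia, with 9.36% of all gated UMIs, held 50.2% of Mertk, 56.8% of Pros1, 44.4% of Axl, 48.1% of Cd36 and 36.5% of Itgb5. Rods, with 28.8%, held 35.1% of Gas6 and 38.6% of Mfge8. Astrocyte-gated cells, 37 in number and 0.171% of gated UMIs, held 31.6% of Cd36. These shares depend on how many cells of each type were recovered.

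**Figure D3:**
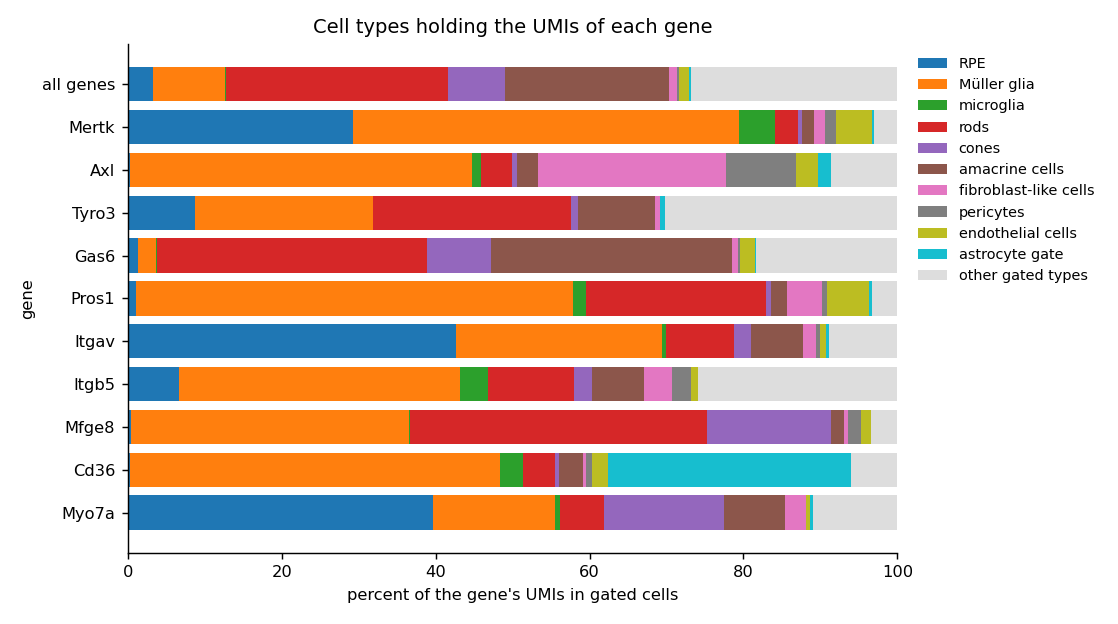
Share of each member's gated UMIs held by each cell type, in percent, as stacked bars with all genes in the first bar. RPE holds 3.25% of all UMIs but 42.6% of those of Itgav, and Müller glia hold 50.2% of those of Mertk.

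Shares of cells with a UMI were read against rods, which served as the type with background UMIs for the receptors and Myo7a. Median depth was 16149 UMIs in RPE, 14798 in Müller glia, 6630 in microglia and 4684 in rods, so cells were also thinned to 3000 UMIs, which left out 77 RPE cells, 46 Müller glia, 4 microglia and 3268 rods. Mertk was seen in 86.5% of RPE cells (75.6% after thinning), beside 2.61% of rods (1.43%). Itgav was seen in 97.9% (92.4%), Myo7a in 76.1% (48.8%) and Itgb5 in 56.3% (16.8%) of RPE cells, each above rods at 15.5% (9.47%), 2.06% (0.997%) and 6.51% (3.85%). Axl and Cd36 were seen in 0 of the 250 thinned RPE cells (3 such cells would be 1.2%), beside 0.396% and 0.174% of thinned rods, so that their UMIs in RPE were read as background. Gas6 was seen in 8.40%, Pros1 in 2.80% and Mfge8 in 2.00% of thinned RPE cells. Rods held these 3 genes themselves, in 25.2%, 6.09% and 17.7% of thinned cells, so they give no background for them, and expression and free RNA in RPE cells cannot be told apart here. Free RNA was not removed from the counts.

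Among the other genes of the pathway, those for signalling and for phagosome maturation were described by counts in RPE against Müller glia, where 61.6% of all genes passed the threshold, 4394 higher and 5289 lower in RPE. Of 14 genes of engulfment signalling and cytoskeleton 9 were higher and 2 lower, with a median log2 fold change of 0.88 beside -0.11 over all genes. They included Ezr (5.44), encoding ezrin of the apical microvilli, Anxa2 (3.36), Abca1 (1.88), Rac1 (1.22) and Ptk2 (1.15), encoding the focal adhesion kinase that relays αvβ5, while Elmo2 (-1.22) and Grb2 (-0.53) were lower. Of 14 genes of phagosome maturation 10 were higher and 3 lower (median 0.97), with Ctsd (4.51), the protease that digests opsin, Atp6v0a1 (2.41), a subunit of the proton pump, Map1lc3a (2.37), Rab7 (1.24) and Lamp2 (1.23) higher, and Tfeb (-0.51), Rubcn (-0.42) and Atg5 (-0.35) lower. Of 5 genes of Myo7a-linked transport Rab27a (6.41) and Myrip (3.03), which tether myosin VIIa to melanosomes, were higher and Kif5b (-0.28) lower (median 0.23).

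Of the other lists, 12 of 14 further engulfment receptors and partners were tested. Against Müller glia 5 were higher in RPE and 1 lower (median 0.27), with Itgb3 (3.30) and Lrp1 (1.53) higher and Scarb2 (-1.07) lower. Itgb3 was low, with 32 UMIs in RPE (0 to 8.25 CPM by mouse), 10 in Müller glia (0 to 2.67) and 12 in microglia. Against microglia, where 32.2% of all genes passed, 3291 higher and 1767 lower in RPE, 2 of the list were higher in RPE, Scarb1 (1.62) and Lrp1 (0.95), and 8 lower, among them Stab1 (-5.88), Itgb3 (-2.76) and Scarb2 (-1.93), with a median of -2.34 beside 0.83 over all genes. The further ligands Tub, Tulp1, Lgals3 and Edil3 gave 0 of 4 past the edgeR threshold and 0 at an unadjusted p under 0.05 between RPE and Müller glia. Between RPE and rods Tub (-4.99), Tulp1 (-4.84) and Edil3 (-3.40) were lower and Lgals3 (2.14) higher in RPE.

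The comparison of dKO with control mice asked whether these genes differed 6 months after induction in the cells that carry the Cre and in their neighbours. In RPE none of the 8 members tested passed (0 by edgeR, 1 at an unadjusted p under 0.05, 0 by DESeq2), beside 0.0523% of 9553 genes, 5 in number, and 0 genes without S07. The number of genes past the threshold was 2, 24, 1 and 29 without S01, S02, S03 and S06. The 5 rod markers made up 0.161% of RPE UMIs in S07 and 0.0197 to 0.0287% in the other 6 mice, and with this share as a covariate 0 genes and 0 members passed by edgeR. Axl and Cd36 were below the filter on low counts. Mertk stood at 567 ± 14.1 CPM in control (SD, n = 3) and 509 ± 212 in dKO mice (n = 4), which overlapped (log2 fold change -0.02, SE 0.25, edgeR adjusted p = 1.0). Its direction turned without S07 (0.11). Itgav had means of 1526 ± 242 and 1891 ± 287 CPM, with dKO values between 1611 and 2264 and control values between 1316 and 1790 (log2 fold change 0.28, SE 0.26, edgeR adjusted p = 1.0, and 0.39 without S07).

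The member with the lowest p in RPE was Itgb5. It stood at 113, 86.6 and 70.9 CPM in the control and at 73.3, 0, 44.4 and 64.9 CPM in the dKO mice S06 to S09, where S06 lay above the lowest control. The 0 of S07 allows a level of up to 107 CPM, since 3 UMIs of its 27932 would stand for that. The means were 90.3 ± 21.4 (n = 3) and 45.7 ± 32.8 CPM (n = 4), and the log2 fold change was -0.60 (SE 0.25, unadjusted p = 0.0256, edgeR adjusted p = 0.864), or -0.56 without S07 (edgeR adjusted p = 0.808). Itgb5 was seen in 65.2% of control and 48.3% of dKO RPE cells, and in 20.1% and 12.9% after thinning, at median depths of 20780 and 10167.5 UMIs per cell.

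Gas6 and Myo7a in RPE did not pass either. Gas6 stood at 30.4 ± 4.27 CPM in control and 43.5 ± 19.5 in dKO mice, and the log2 fold change of 0.53 (SE 0.29, edgeR adjusted p = 1.0) fell to 0.11 without S09, the mouse at 72.3 CPM. Myo7a stood at 240 ± 22.9 and 230 ± 40.5 CPM (log2 fold change -0.11, SE 0.19, edgeR adjusted p = 1.0). Without S07 the log2 fold changes were 0.55 for Gas6 and -0.09 for Myo7a. Pros1 (0.55), Tyro3 (-0.46) and Mfge8 (0.05) had few UMIs, and their edgeR adjusted p was 1.0. The share of RPE cells with a Mertk UMI was 92.3% in control and 81.4% in dKO mice, and 74.6% and 76.7% after thinning.

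**Figure D4:**
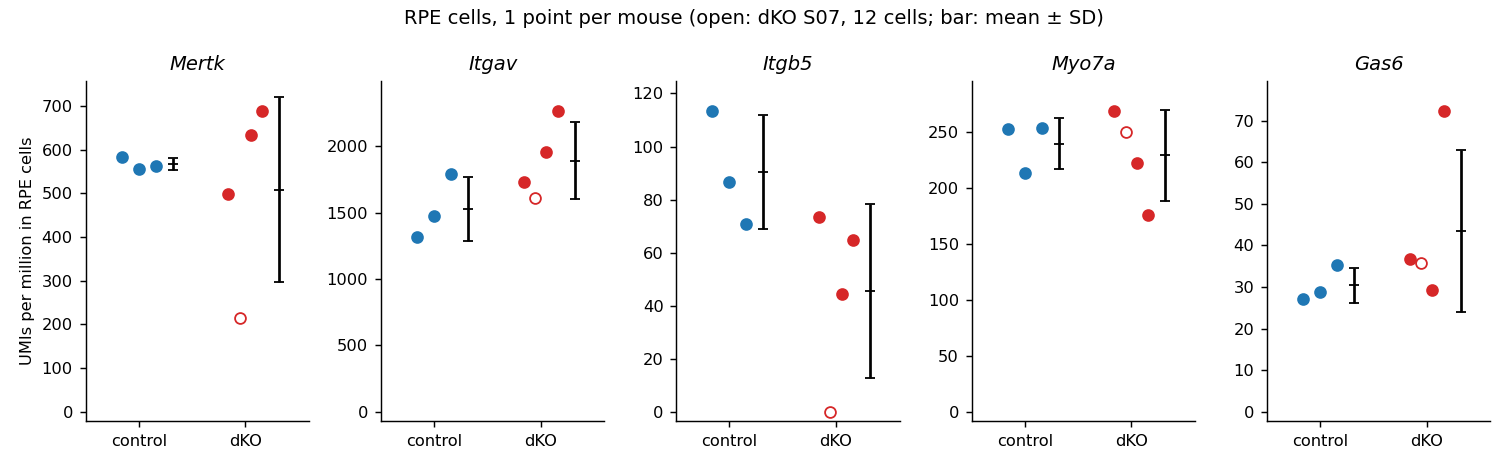
CPM of Mertk, Itgav, Itgb5, Myo7a and Gas6 in RPE, with 1 point for each of 3 control and 4 dKO mice (S07 open) and a bar for the mean ± SD. The groups overlap for all 5 genes, and S07 lies lowest for Mertk (215 CPM) and Itgb5 (0 CPM).

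In Müller glia none of the 10 members passed (0 by edgeR, 0 at an unadjusted p under 0.05, 0 by DESeq2), beside 0.00% of 12906 genes. The lowest value was that of Myo7a, at 27.0, 24.9, 80.6 and 20.5 CPM in the control mice S01 to S04 and at 16, 32.3, 26.8, 28.9 and 21.1 CPM in the dKO mice S05 to S09. S03 stood far above the other 8 mice, which overlapped between groups. The log2 fold change of -0.66 (SE 0.34, edgeR adjusted p = 1.0) was 0.06 without S03. Mertk had a log2 fold change of -0.23 (SE 0.19, edgeR adjusted p = 1.0), and Itgav of -0.17 (SE 0.10, edgeR adjusted p = 1.0), with S02 the highest Mertk value at 566 CPM among the controls. Without S02 the direction of Mertk turned (0.09).

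In microglia 1 control mouse (S02) was compared with 2 dKO mice (S06 and S08), so that the spread came from the dKO mice alone. None of the 7 members tested passed (0 by edgeR, 2 at an unadjusted p under 0.05, 0 by DESeq2), beside 1.82% of 2963 genes. Mertk had a log2 fold change of -0.97 (SE 0.35, unadjusted p = 0.00531, edgeR adjusted p = 0.185) and Cd36 of 2.30 (SE 0.80, unadjusted p = 0.00382, edgeR adjusted p = 0.145). The 5 markers of macrophages other than microglia (Mrc1, Cd163, Ms4a7, Lyz2 and Cd74) made up 0.0625% of the UMIs in S02, with 5 of 5 detected, and 0.240% and 0.190% in S06 and S08, with 4 and 5 detected. The 5 RPE markers made up 0.0674% in S06 and at most 0.00098% in S02 and S08. The part of these cells in the result was not tested. With all 9 mice, whatever the number of cells, Mertk stood at 2339, 2851, 2091 and 1460 CPM in the controls and 1782, 1391, 1522, 1360 and 3366 CPM in the dKO mice, which overlapped, and with at least 5 cells per mouse its log2 fold change was -0.32 (edgeR adjusted p = 0.879).

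In rods none of 9 members tested passed (0 by edgeR, 0 at an unadjusted p under 0.05, 0 by DESeq2), beside 0.00% of 13532 genes, with log2 fold changes from -0.21 (Itgav) to 0.55 (Axl). The difference of the dKO effect between RPE and Müller glia, tested as an interaction, passed for none of the 10 members (0 by edgeR, 2 at an unadjusted p under 0.05), beside 0.0234% of 12823 genes. Of the 10, Axl and Cd36 were below the filter on low counts in RPE alone, and Cd36 rests on 3 UMIs there. Itgb5 had the interaction log2 value -0.57 (SE 0.26, unadjusted p = 0.0409, edgeR adjusted p = 0.947), and Axl, which rests on 12 UMIs in RPE, 2.38 (SE 0.90, unadjusted p = 0.0142, edgeR adjusted p = 0.845). A p that misses the threshold does not show that the groups were alike, and with 3 control mice in RPE the intervals are wide.

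**Figure D5:**
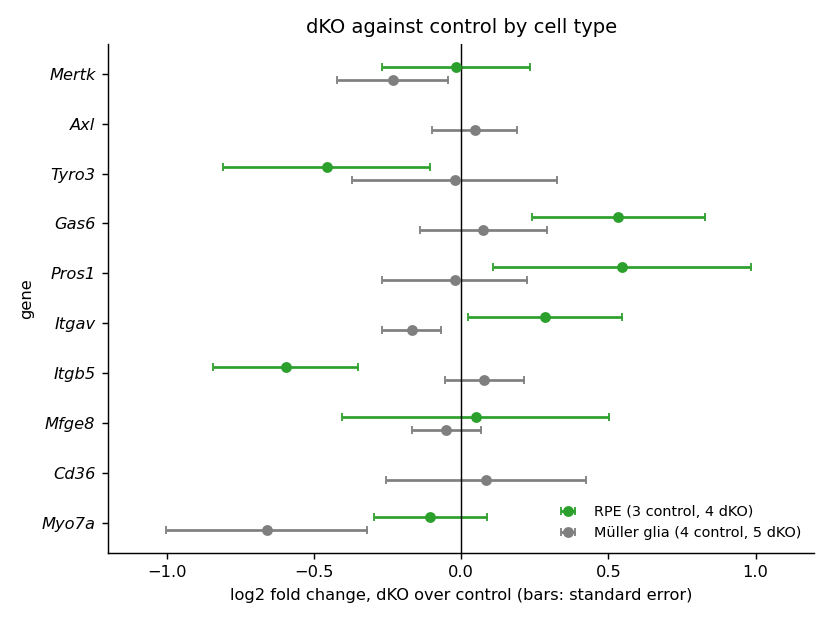
Log2 fold changes of dKO over control for 8 members in RPE (green) and 10 in Müller glia (grey), with bars for the standard error of the edgeR fit. No member passed the threshold in either type, and the lowest values are those of Itgb5 in RPE (-0.60) and Myo7a in Müller glia (-0.66).

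No gene of the other pathway lists described here passed the threshold in dKO against control mice in any of these types by edgeR. In RPE 14 of 14 engulfment signalling genes were tested, with a median log2 fold change of -0.07 beside -0.01 over all genes, and 13 of 14 phagosome maturation genes, with a median of 0.07. The lowest p-values in RPE were those of Lamp1 (0.78, SE 0.30, unadjusted p = 0.0176, edgeR adjusted p = 0.789), a protein of the lysosome membrane, and Map1lc3b (0.68, SE 0.27, unadjusted p = 0.0191, edgeR adjusted p = 0.815), an LC3 that coats phagosomes. Edil3, which binds phosphatidylserine and integrins, had 0.65 (SE 0.29, unadjusted p = 0.0385, edgeR adjusted p = 0.938). In Müller glia no gene of these lists had an unadjusted p under 0.05, with medians between -0.08 and 0.10.

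Patterns over 13 types were compared by Pearson's correlation of mean log2(CPM + 1) per type. This was a description without a test, since all types share libraries and depth. The genes with the most similar pattern were sought among 11640 genes above 20 CPM in at least 1 type. For Mertk they were Cd82 (0.957), Cd81 (0.955) and Trim12a (0.948), for Itgav Csad (0.929), Mapre1 (0.902) and Dusp6 (0.898), and for Myo7a Soat1 (0.905), Frrs1 (0.878) and Rpn1 (0.870). Cd36 was closest to Dapp1 (0.965), Pros1 to Cd9 (0.943) and Itgb5 to Slc2a9 (0.863). Among the members themselves Mertk followed Pros1 (0.811), Itgav (0.781) and Cd36 (0.697) over the types, and Itgav and Itgb5 had a value of 0.587.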

How the data were processed

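Per the labels and the methods text, retinas were peeled from the eye cup, dissociated with papain and barcoded by split-pool (Evercode) in 8 sublibraries. The authors mapped reads with split-pipe to GRCm39 and filtered out cells and genes with very little detected, and the submitters' processing notes name R 4.2.2 and Seurat 4.3.0. The deposited values are raw UMI counts per gene and cell, without normalization. Cell types are not given with the cells. A cell entered a gate with at least 2 of 5 markers of a type, a summed marker level of at least 0.33 of the type's scale and no other type with 3 or more markers above 0.5 of its own. These thresholds were set after marker UMIs were seen, and 34 RPE cells lay near the lower one. Cells of very high UMIs or mixed markers that passed the gate, and free RNA, were not removed. The members and lists were chosen with earlier results of these data known.

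Counts were summed per mouse and type and, for mice with at least 10 cells, tested with edgeR 4.0.16 (R 4.3.3) by the quasi-likelihood test with TMM, filterByExpr and Benjamini-Hochberg adjustment over all genes tested, at a threshold of 0.05. Comparisons of types used mouse as a block, since the types of a mouse come from the same animal, and 1 fit over RPE, Müller glia, microglia and rods. The standard error was derived from the F statistic. Gene names given are the 10 members, and of the lists those past the threshold or among the 3 with the lowest p. Lists are described by counts and medians. One further list is not reported here. The alternatives were DESeq2 1.42.0, library-size scaling without TMM, no filter, at least 4 markers, omission of the 5% of cells with most UMIs, S06 and S07 summed, the Xist level or the rod marker share as a covariate, no minimum of cells, S04, S05 and S07 left out, no block, and each mouse left out. Microglia with at least 5 cells per mouse, and RPE without 9 cells of male mice (S04, S05 and S07, from Y-linked RNA) that hold Xist and no Y-linked UMI, were added after the data were seen. The scripts were tested on simulated data. Depth was 15079143 to 66528160 UMIs per mouse, with a median of 7709 per cell, and all intervals (95%) and floors (3 UMIs) cover counting error only. Nothing in the labels names litters or culture batches. The p-values of dKO against control within a type therefore measure the spread between these mice. Those between types and of the interaction, with mouse as a block, measure the spread left after differences between mice are removed. Tables were made with Python 3.11.15, numpy 2.4.6, pandas 2.3.3 and scipy 1.17.1, and figures with matplotlib 3.10.9.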

Additional observations from a re-analysis of the deposited data

Results flagged for a closer look

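In 50 groups of 4 to 10 mice the highest and lowest values were checked against the rest, with the gap to the nearest mouse divided by the range of the group, and 8 lay past Dixon's 95% critical value, where chance gives about 1 in 20. In Müller glia Mertk was low in the dKO mouse S08 (276 CPM beside 320 to 328, ratio 0.843), Pros1 was low in the control mouse S03 (112 beside 211 to 221, ratio 0.911) and Myo7a was high in S03 (80.6 beside 20.5 to 27.0, ratio 0.892). In rods the control mouse S04 was low for Pros1 (18.9 CPM beside 27.0 to 28.1, ratio 0.882) and high for Mfge8 (87.9 beside 55.4 to 59.9, ratio 0.862). In RPE the dKO mouse S07 was at 0 for Tyro3 (beside 10.5 to 12.6 CPM, ratio 0.830) and high for Mfge8 with 1 UMI (35.8 beside 4.07 to 8.38 CPM, ratio 0.864). Cd36 in RPE was 0.814 CPM in S06, from 2 UMIs, and 0 in the other dKO mice (ratio 1).

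Cells of the astrocyte gate, which no comparison used because no mouse had 10 of them, held Cd36 at 666 CPM over all mice (386 UMIs in 37 cells, exact 95% Poisson interval 602 to 736), the highest level of any gate. By mouse the level was 429, 625, 624 and 811 CPM in S01 to S04, from 5, 6, 4 and 1 cells. It was 1579, 984, 0, 623 and 538 CPM in S05 to S09, from 1, 4, 2, 7 and 7 cells. The gate was led by Gfap and Pax2, genes of retinal astrocytes that are markers of this gate. Cd36, which is no gate marker, ranked 6 by fold over other gated cells (54.3-fold).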

How the results depend on the processing

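Of 813 fold changes of members recomputed under the alternatives, 778 kept direction and side of the threshold, 8 lost and 5 gained a call, and 22 turned direction. These 813 values, and the turned values listed below, do not cover every fold change given above. They leave out Pros1, Tyro3 and Mfge8 in dKO RPE and all members in dKO rods. In dKO Müller glia they cover Mertk, Itgav and Myo7a alone. Tyro3, whose fold changes against microglia are not given because microglia held 0 UMIs, gained a call in RPE over microglia with no filter or without S09, and in microglia over Müller glia with no filter or without S01. All 250 levels moved by less than the SD between mice. For levels with 1 mouse left out this was fixed in advance, since omitting 1 value cannot move a mean by 1 SD. The number of members past the threshold stayed within 1.5 times in 132 of 132 values. No paired analysis was possible for dKO against control because no label ties a control mouse to a dKO mouse. Without the mouse as a replicate block, the comparisons of types gave 9616, 5234, 5111 and 11026 genes (RPE over Müller glia, RPE over microglia, microglia over Müller glia, RPE over rods), and no member's call changed. The 5 genes past the threshold in dKO RPE became 2 with library size, 0 with DESeq2, at least 4 markers, S06 and S07 summed, the Xist covariate, the rod marker covariate or S04, S05 and S07 left out, 8 without the misplaced cells, 66 with no filter and 0 to 29 with 1 mouse left out. In Müller glia 0 became 24 with no filter, 1 without S04, S05 and S07, and 0 to 1 with 1 mouse left out. In microglia 54 became 5 with DESeq2, 31 without the top 5% of cells and 0 with at least 5 cells per mouse. In rods 0 became 1 with DESeq2, 1 with no filter and 0 to 1 with 1 mouse left out. The interaction's 3 became 44 with no filter and 2 to 33 with 1 mouse left out. Mertk in dKO RPE (-0.02 log2) turned to 0.0030 with library size, 0.14 with at least 4 markers, 0.11 with S06 and S07 summed, 0.14 with the Xist covariate, 0.11 without S04, S05 and S07, 0.067 with the rod marker covariate and 0.0019 without the misplaced cells, and ran from -0.17 to 0.11 with 1 mouse left out. Other log2 values that turned with 1 mouse left out ran from -0.24 to 0.0037 (Myo7a, dKO RPE), -0.35 to 0.091 (Mertk, dKO Müller glia), -0.88 to 0.063 (Myo7a, dKO Müller glia), -0.16 to 0.33 (Tyro3, RPE over Müller glia) and -0.86 to 0.060 (Axl, RPE over rods). For the interaction they ran from -0.10 to 0.39 (Mertk) and -0.13 to 0.74 (Myo7a). By scaling, Tyro3 in RPE over Müller glia turned to -0.015 with library size, Mfge8 in RPE over microglia to -0.70 with library size and -0.41 with DESeq2, Axl in microglia over Müller glia to 0.26 and 0.057, and Cd36 in RPE over rods to 0.14 with DESeq2. The cause of these changes was not tested. For dKO microglia the alternatives with at least 4 markers, without S04, S05 and S07, with S06 and S07 summed, with the Xist covariate and with 1 mouse left out gave no value. RPE depth limits the low genes: 3 UMIs in all RPE cells stand for 0.271 CPM, but for 107 CPM in S07.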

Other observations

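The β chains that can pair with αv were looked at after Itgb8 had been seen as the tenth gene by fold in the RPE gate (95.5-fold over other gated cells), so their levels are given as a description, without a test. Itgb8 stood at 2696, 3156 and 2646 CPM in RPE of S01 to S03 and at 3039, 3007, 3433 and 3382 CPM in S06 to S09, where control and dKO mice overlapped. Its RPE mean was 3051 ± 305 CPM (SD, n = 7), beside 138 ± 25 in Müller glia (n = 9) and 9.57 ± 3.83 in rods (n = 9), with no overlap.

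Itgb6, low in level, was also found in RPE (26.9 ± 13.7 CPM, n = 7, 368 UMIs) and hardly in Müller glia (5 UMIs). Itgb3 had 32 UMIs in RPE, a mean of 2.83 ± 2.56 CPM (n = 7). Itgb1, the common β chain, stood at 98.6 ± 16.8 CPM in RPE (n = 7) and 123 ± 13.9 in Müller glia (n = 9). Levels of different genes are not compared here, since UMI counts are not scaled by capture of each transcript.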
